A study of Mus musculus with 11 samples.

Results

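Steroid hormone receptors and a short set of glucocorticoid response genes were followed in mononuclear phagocytes of the mouse epididymis, the duct in which sperm mature. The 7 genes were chosen by name among the 37583 rows of the deposited expression table, and all 7 were found. They are the receptor genes Nr3c1, Nr3c2, Esr1 and Pgr, and the response genes Fkbp5, Tsc22d3 and Per1. RNA was sequenced from EGFP+ cells taken by double sorting from CX3CR1 EGFP +/- mice aged 12 weeks, in which the Cx3cr1 gene drives EGFP in mononuclear phagocytes. All 11 libraries carry that transgene, and each pooled 4 epididymides. The initial segments (IS) gave 4 libraries, the caput/corpus 3 and the cauda 4, and no hormone treatment is named in the labels.

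The glucocorticoid receptor, the product of Nr3c1, waits in the cytoplasm in a complex of heat shock proteins, enters the nucleus when it binds hormone, and switches genes on or off. Fkbp5 encodes a co-chaperone of that complex that lowers the receptor's affinity for hormone, and is itself induced by the receptor, which makes a feedback loop. Tsc22d3 encodes GILZ, a glucocorticoid-induced leucine zipper protein that dampens inflammatory signalling in macrophages. Per1 is a core gene of the circadian clock and is also induced by glucocorticoids and by cAMP. The mineralocorticoid receptor (Nr3c2) binds aldosterone and glucocorticoids, Esr1 encodes oestrogen receptor alpha, and Pgr encodes the progesterone receptor.

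The promoters of the response genes are shown because those genes are the ones described most closely here, and glucocorticoid and clock factors are known to act on DNA. Each is a window of 250 bases before to 50 bases after an annotated start, written 5′ to 3′ on the gene's strand, from RefSeq on build GRCm38.p6. The motifs named below were searched on both strands, and capitals mark the matches.
Fkbp5 (chr17:28486100-28486399, minus strand): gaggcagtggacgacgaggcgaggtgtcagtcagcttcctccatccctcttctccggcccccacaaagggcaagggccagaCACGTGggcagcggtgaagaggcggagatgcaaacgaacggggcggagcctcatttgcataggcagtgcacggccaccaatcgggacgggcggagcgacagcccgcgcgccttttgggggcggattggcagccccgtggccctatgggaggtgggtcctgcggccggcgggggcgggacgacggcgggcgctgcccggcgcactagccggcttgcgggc
Tsc22d3 (chrX:140600473-140600772, minus strand): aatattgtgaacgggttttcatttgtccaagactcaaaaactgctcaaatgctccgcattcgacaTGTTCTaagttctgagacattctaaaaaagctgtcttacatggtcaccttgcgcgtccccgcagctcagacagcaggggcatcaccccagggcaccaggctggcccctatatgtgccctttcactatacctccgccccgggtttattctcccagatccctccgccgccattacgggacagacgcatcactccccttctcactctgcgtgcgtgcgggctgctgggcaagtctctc
Per1 (chr11:69098699-69098998, plus strand): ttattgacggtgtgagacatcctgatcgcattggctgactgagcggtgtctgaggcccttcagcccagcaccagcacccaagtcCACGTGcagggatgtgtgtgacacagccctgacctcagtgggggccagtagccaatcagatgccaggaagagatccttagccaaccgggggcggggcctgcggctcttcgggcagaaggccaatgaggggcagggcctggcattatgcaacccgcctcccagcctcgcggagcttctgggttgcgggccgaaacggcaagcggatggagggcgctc
The windows of Fkbp5 and Per1 each hold 1 E-box (CACGTG, the site of clock factors), at bases 82 to 87 and 85 to 90 of the window, and 7.15% of all 32851 promoter windows hold that motif. The Tsc22d3 window holds 1 glucocorticoid half-site (TGTTCT, or AGAACA on the other strand) at bases 66 to 71, a motif found in 19% of windows. The full palindromic element (AGAACA, any 3 bases, then TGTTCT, which contains the half-site) was in 0.00913% of all windows, and the cAMP response element (TGACGTCA) in 1.79%, and neither was in these 3 windows. Tsc22d3 has 3 windows and Per1 has 2, and their other windows held none of these motifs. For both genes the window shown is the 1 with a match, and the shares above are per window, not per gene. A match is a description of these letters only.

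Levels are RPKM (reads scaled by gene length and library size), so that genes can be compared. Averaged over the 11 libraries, the order was Tsc22d3 (54.8 RPKM), Nr3c1 (17.4), Per1 (7.45), Fkbp5 (4.88), Nr3c2 (0.778) and Esr1 (0.588), with Pgr at 0. Tsc22d3 lay above 97.4% of the 37583 genes by that mean and Nr3c1 above 91.0%. The ranges over libraries of neighbours in that order overlapped for Nr3c1 and Per1, for Per1 and Fkbp5, and for Nr3c2 and Esr1. Every library of Tsc22d3 lay above every library of Nr3c1, and every library of Fkbp5 above every library of Nr3c2.

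Several features of the libraries bear on what follows. The libraries held 16873180 to 31737132 reads in genes. The macrophage markers of the sort were present in all of them: none of 10 was at 0, with Cx3cr1 (the gene the sort relies on) at 168 to 239 RPKM in IS, 87.3 to 148 in caput/corpus and 70.9 to 99.2 in cauda. For 3 libraries (IS 2, caput/corpus 1 and cauda 1) the deposited count file and the expression column of the same name hold different reads, and the named columns are used here. Cauda 1 also stood apart, with reads in 13434 genes, where the others had them in 17053 to 18837. The sample titles form series Maj3 (IS 1 and 2, caput/corpus 1, cauda 1 and 2) and Maj4 (the other 6 libraries), and the labels do not say what the series stands for. Markers of other cells moved with region. Summed RPKM of 16 epididymal epithelium markers was 1131.6 to 2579 in IS, 250.3 to 506 in caput/corpus and 11.5 to 30.9 in cauda. In the named columns of the 3 libraries with differing sources it was 2579 (IS 2), 506 (caput/corpus 1) and 11.5 (cauda 1). Summed RPKM of 8 mast cell markers was 26.1 to 99.2, 615 to 883 and 879 to 3450 in the same order of regions.

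**Figure D1:**
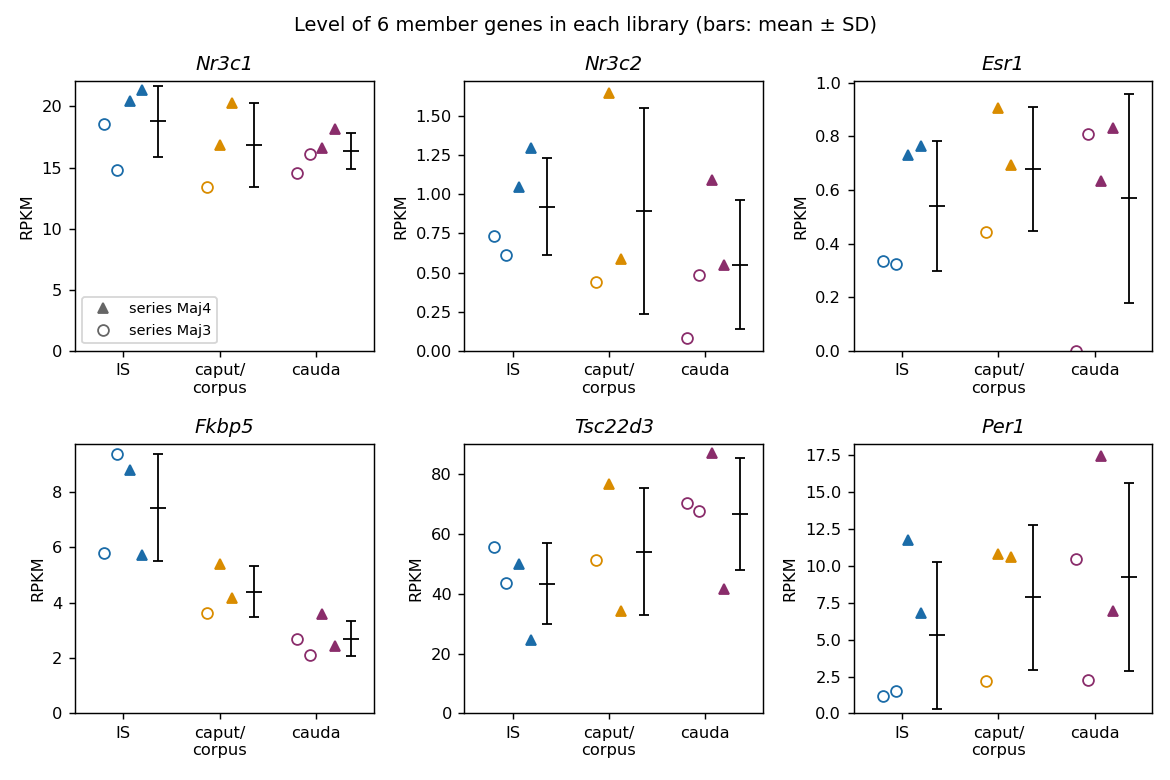
RPKM (linear axis) of 6 genes in each library by region, with filled triangles for title series Maj4, open circles for Maj3, and black bars for the mean ± SD. Fkbp5 lay in 3 separate bands, 5.74 to 9.38 RPKM in IS, 3.62 to 5.40 in caput/corpus and 2.11 to 3.58 in cauda, while the regions overlapped for the other 5 genes.

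Nr3c1 (ENSMUSG00000024431), the glucocorticoid receptor gene, had 18.6, 14.8, 20.4 and 21.3 RPKM in IS 1 to 4. It had 13.4, 16.9 and 20.3 RPKM in caput/corpus 1 to 3 and 14.6, 16.1, 16.6 and 18.2 RPKM in cauda 1 to 4. The 3 regions overlapped, and the lowest library of all was caput/corpus 1. Means were 18.8 ± 2.89 RPKM in IS (SD, n = 4), 16.9 ± 3.47 in caput/corpus (SD, n = 3) and 16.4 ± 1.49 in cauda (SD, n = 4). None of the 3 comparisons passed the test: the log2 fold change was 0.21 ± 0.12 (SE; adjusted p = 0.495, edgeR) for IS over caput/corpus, 0.19 ± 0.11 (adjusted p = 0.288) for IS over cauda and -0.020 ± 0.12 (adjusted p = 0.975) for caput/corpus over cauda. A p that misses the threshold does not show equal levels.

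Nr3c2 (ENSMUSG00000031618), the mineralocorticoid receptor gene, was at a low level, with 0.736, 0.610, 1.04 and 1.29 RPKM in IS 1 to 4. Caput/corpus 1 to 3 had 0.441, 1.65 and 0.584 RPKM, and cauda 1 to 4 had 0.0815, 0.482, 1.09 and 0.548 RPKM. The highest library was caput/corpus 2 and the lowest was cauda 1, which held 15 reads of the gene, and the regions overlapped. The log2 fold change of IS over cauda was 0.89 ± 0.57 (SE; adjusted p = 0.347, edgeR), and 0.53 ± 0.41 (adjusted p = 0.415) without cauda 1. The other 2 comparisons did not pass either, at 0.32 ± 0.62 for IS over caput/corpus and 0.56 ± 0.61 for caput/corpus over cauda. The RPKM ratio of Nr3c1 to Nr3c2 was 10.2 to 34.8 in 10 libraries and 179 in cauda 1, so the glucocorticoid receptor transcript was the more abundant of the pair in every library. In an annotation on a build other than that of the files, the exons of Nr3c2 share 247 bases with Gm10649 on the other strand. Counting was not stranded, so reads of the 2 genes cannot be told apart there. The count files hold 1.74% to 2.12% of reads as ambiguous, outside the gene counts. Whether the shared reads are among them was not tested.

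Esr1 (ENSMUSG00000019768), for oestrogen receptor alpha, had 0.334, 0.324, 0.732 and 0.765 RPKM in IS 1 to 4. Caput/corpus 1 to 3 had 0.442, 0.904 and 0.692 RPKM. Cauda 1 had no read, and cauda 2 to 4 had 0.810, 0.633 and 0.833 RPKM from 178 to 384 reads each. No region stood apart, and log2 fold changes were -0.24 ± 1.06, -0.13 ± 0.98 and 0.11 ± 1.06 (SE) for IS over caput/corpus, IS over cauda and caput/corpus over cauda, with adjusted p of 0.972, 0.948 and 0.983 (edgeR). Without cauda 1 the IS over cauda value was -0.53 ± 0.28 (adjusted p = 0.221), and caput/corpus over cauda turned to -0.26 ± 0.30 (adjusted p = 0.763). For cauda 1, 3 reads would be 0.00649 RPKM.

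Pgr (ENSMUSG00000031870) had no read in any of the 11 libraries. A count of 0 allows a level of up to 0.0161 to 0.0271 RPKM, the worth of 3 reads of this gene, depending on the library. These limits cover counting error only. Pgr was below the filter on low counts and was not tested, so 6 of the 7 genes entered the fit.

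Among related receptor genes, 4 of 6 were tested, and none passed the test in any of the 3 comparisons by edgeR or DESeq2, also at an unadjusted p under 0.05. The median log2 fold change of the 4 was 0.14, 0.23 and 0.090 in the 3 comparisons, beside 0.019, 0.047 and 0.017 over all 15116 genes tested.

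Fkbp5 (ENSMUSG00000024222) was the 1 gene of the 7 that passed the test between regions, and it was highest in IS. It had 5.80, 9.38, 8.81 and 5.74 RPKM in IS 1 to 4, from 1112 to 2069 reads a library. It had 3.62, 5.40 and 4.18 RPKM in caput/corpus 1 to 3 and 2.67, 2.11, 3.58 and 2.42 RPKM in cauda 1 to 4. Every IS library lay above every caput/corpus library, and every caput/corpus library above every cauda library. Means were 7.43 ± 1.94 RPKM in IS (SD, n = 4), 4.40 ± 0.915 in caput/corpus (SD, n = 3) and 2.70 ± 0.631 in cauda (SD, n = 4). This descending order without overlap was shared by 178 of the 15116 genes tested, or 1.18%. Libraries of the first region lay wholly above those of the second for 6.82% of genes tested in IS over caput/corpus, 10.6% in IS over cauda and 6.52% in caput/corpus over cauda.

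The IS over cauda log2 fold change of Fkbp5 was 1.47 ± 0.23 (SE), a 2.77-fold difference, with an adjusted p of 0.00196 (edgeR quasi-likelihood, Benjamini-Hochberg). In that comparison 16.5% of all genes tested were called, 7.4% higher and 9.06% lower in IS, and 1 of the 6 tested genes was. The IS over caput/corpus value was 0.80 ± 0.25 (adjusted p = 0.133) and the caput/corpus over cauda value was 0.67 ± 0.25 (adjusted p = 0.302), so neither step passed the test by itself. None of the 6 genes was called in these 2 comparisons, in which 3.78% and 0.615% of all genes were. In each of them 1 gene of the 6, Fkbp5, had an unadjusted p under 0.05. Of all genes, 0.794% were called higher and 2.98% lower in IS than in caput/corpus, and 0.582% higher and 0.0331% lower in caput/corpus than in cauda. DESeq2 called the IS over caput/corpus difference as well, at 0.83 ± 0.28 (adjusted p = 0.0316).

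The IS over cauda difference of Fkbp5 was of like size within each title series, at 1.28 ± 0.30 in Maj4 (adjusted p = 0.0437) and 1.72 ± 0.35 in Maj3, where 2 libraries a region left it uncalled (adjusted p = 0.166). Leaving out any 1 library kept it called, with log2 values of 1.27 to 1.62. Among the 8 libraries whose 2 deposited sources hold the same reads it was 1.34 ± 0.23 (adjusted p = 0.00525). With the count files as filed under each sample it was 0.96 ± 0.38 and not called (adjusted p = 0.200), and the IS over caput/corpus value turned to -0.15 ± 0.41. As filed, the reads of the IS 2 column stand under caput/corpus 1, and those of the caput/corpus 1 column under cauda 1. The epithelial markers were also highest in IS and lowest in cauda, and mast cell markers the reverse, and their part in the Fkbp5 difference was not tested. In such pooled cells, fewer cells of a type and less RNA per cell cannot be told apart.

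**Figure D2:**
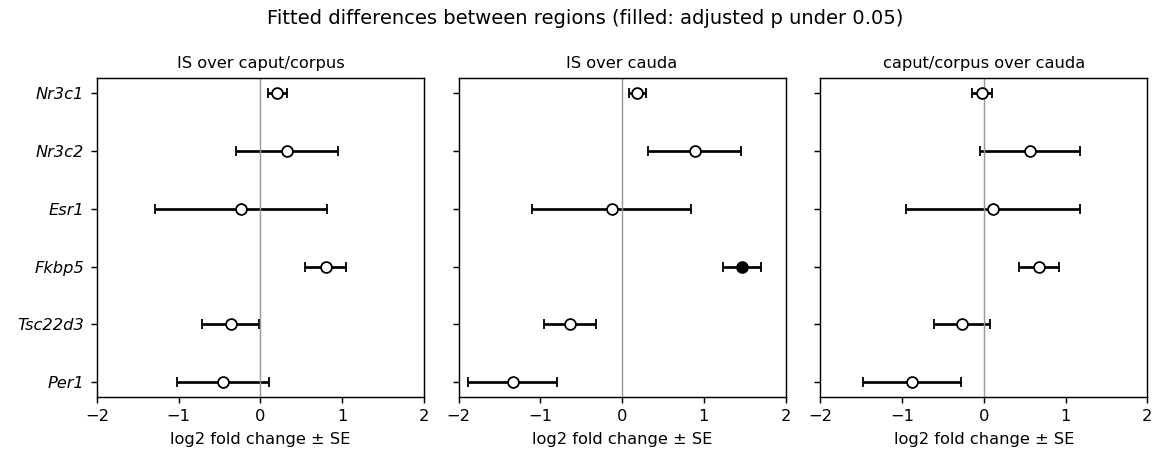
Fitted log2 fold changes ± SE of 6 genes in the 3 comparisons, with filled points for an adjusted p under 0.05. The 1 filled point is Fkbp5 for IS over cauda, at 1.47, and Tsc22d3 and Per1 lie below 0 in all 3 panels without passing the test.

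Tsc22d3 (ENSMUSG00000031431), the GILZ gene, was the most abundant of the 7, and its mean was highest in cauda. It had 55.6, 43.6, 50.1 and 24.5 RPKM in IS 1 to 4, 51.3, 76.7 and 34.3 RPKM in caput/corpus 1 to 3, and 70.5, 67.7, 87.1 and 41.6 RPKM in cauda 1 to 4. The lowest library was IS 4 and the highest was cauda 3, and the regions overlapped. Means were 43.4 ± 13.6 RPKM in IS (SD, n = 4), 54.1 ± 21.3 in caput/corpus (SD, n = 3) and 66.7 ± 18.8 in cauda (SD, n = 4). The log2 fold change of IS over cauda was -0.63 ± 0.32 (SE; adjusted p = 0.214, edgeR), that of IS over caput/corpus was -0.37 ± 0.35 (adjusted p = 0.761) and that of caput/corpus over cauda was -0.27 ± 0.35 (adjusted p = 0.844). None of these passed the test. In 1 of 24 alternatives, the fit with the replicate numbers as a block, Tsc22d3 was called lower in IS than in cauda (adjusted p = 0.00542, edgeR). That fit called 2362 genes in this comparison.

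Per1 (ENSMUSG00000020893) varied widely among libraries of the same region. It had 1.20, 1.54, 11.7 and 6.78 RPKM in IS 1 to 4, 2.20, 10.8 and 10.6 RPKM in caput/corpus 1 to 3, and 10.4, 2.26, 17.4 and 6.92 RPKM in cauda 1 to 4. Low and high libraries occurred in every region, so the regions overlapped. The IS over cauda log2 fold change was -1.34 ± 0.54 (SE; adjusted p = 0.129, edgeR), and DESeq2 called it at -1.31 ± 0.51 (adjusted p = 0.0459). Without cauda 1 it was -0.53 ± 0.29 (adjusted p = 0.239, edgeR), and within series Maj4 it was -0.39 ± 0.43 (adjusted p = 0.663). With the count files as filed it turned to 0.88 ± 0.76 (adjusted p = 0.562). IS over caput/corpus was -0.46 ± 0.56 (adjusted p = 0.846) and caput/corpus over cauda was -0.88 ± 0.60 (adjusted p = 0.633).

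Apart from cauda 1, the levels of Per1 split by title series. Its 6 Maj4 libraries had 6.78 to 17.4 RPKM, whereas 4 of the 5 Maj3 libraries had 1.20 to 2.26 RPKM and the other, cauda 1, had 10.4 RPKM. The Maj4 over Maj3 log2 fold change, tested after these levels had been seen, was 1.95 ± 0.49 (SE; adjusted p = 0.0186, edgeR), in a contrast that called 20.3% of all genes, 10.6% higher and 9.73% lower in Maj4. Without cauda 1 it was 2.54 ± 0.28 (adjusted p = 0.000181, edgeR), in a fit that called 30.4% of all genes. Cauda 1 was already known to be the Maj3 library outside the split, so that smaller p adds no support. Leaving out IS 1, IS 2, caput/corpus 1 or cauda 3 ended the call, with adjusted p up to 0.0721. Nr3c1 was also higher in Maj4, at 18.9 ± 2.01 RPKM (SD, n = 6) against 15.5 ± 1.98 in Maj3 (SD, n = 5), a log2 difference of 0.32 ± 0.095 (adjusted p = 0.0403) that was called in 5 of 11 fits with 1 library left out. The fits that lost it left out IS 2, 3 or 4, caput/corpus 1 or 3, or cauda 4. Fkbp5, Tsc22d3, Nr3c2 and Esr1 did not pass that test, at 0.21 ± 0.20, -0.16 ± 0.27, 1.22 ± 0.50 and 0.99 ± 0.86.

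Of 19 other clock genes, 8 were higher and 1 was lower in Maj4 than in Maj3, with a median log2 fold change of 0.56 beside -0.0046 over all genes. Of all genes, 10.6% were called higher and 9.73% lower in that contrast. Without cauda 1 the counts of clock genes were 10 and 3, in a fit that called 30.4% of all genes. Nr1d2 (for the repressor REV-ERB beta) was higher by 1.49 ± 0.15, Clock (the partner of BMAL1) by 1.18 ± 0.18, Per3 by 1.35 ± 0.26, and the PAR bZIP output genes Dbp by 0.98 ± 0.24 and Tef by 0.78 ± 0.15, all as log2 fold changes ± SE, and these 5 were called in all 11 fits with 1 library left out. Bhlhe40, a repressor gene of the clock, was lower in Maj4 (log2 -0.63 ± 0.18, adjusted p = 0.0296, edgeR), and lost the call without IS 2, 3 or 4 or cauda 3 or 4. Its relative Bhlhe41 was higher in Maj4 (1.22 ± 0.35, adjusted p = 0.0316, edgeR), as was Per2 (1.26 ± 0.36, adjusted p = 0.0345). Both were called in 4 of 11 such fits. In the other lists, of 18 glucocorticoid-induced genes 3 were higher and 6 lower in Maj4 than in Maj3 (median log2 fold change -0.35), of 18 immediate early genes 2 were higher and 8 lower (median -0.54), and of 13 receptor chaperones 0 were higher and 4 lower (median -0.20). Without cauda 1 the counts of these 3 lists came to the same numbers. Multiply aligned reads made up 12.5% to 14.7% of the count files of Maj4 and 27.6% to 35.8% of those of Maj3. The 35.8% belongs to the file of IS 2, which equals no column, and the other Maj3 files had 27.6% to 28.5%. No file equals the column of cauda 1, so its share is not known. Reads outside any gene went the other way, at 18.6% to 24.8% in Maj4 and 7.75% to 11.3% in Maj3. Reads in genes were 16873180 to 22544035 a library in Maj4 and 27034390 to 31737132 in Maj3. The part of these features in the differences between series was not tested.

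**Figure D3:**
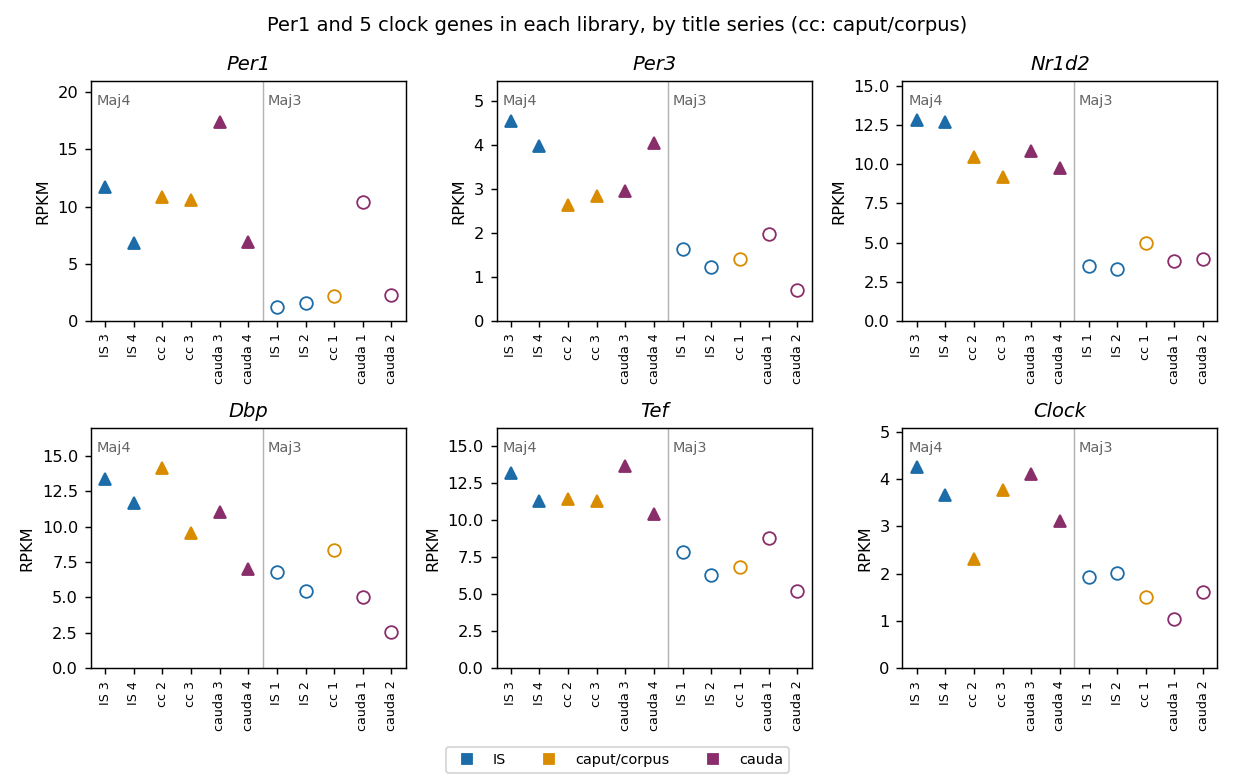
RPKM (linear axes) of Per1 and 5 clock genes in each library, with Maj4 libraries left of the vertical line, Maj3 libraries right of it, and colours for the region. For Per1, cauda 1 at 10.4 RPKM is the 1 Maj3 library within the Maj4 range of 6.78 to 17.4, and Nr1d2 shows no Maj3 library above 4.97 RPKM.

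Some clock genes were also called across regions. Bhlhe40 was lower in IS than in caput/corpus (log2 -1.82 ± 0.22) and than in cauda (-2.07 ± 0.21), at 18.6 to 37.3 RPKM in IS, 73.1 to 84.8 in caput/corpus and 61.4 to 159 in cauda. Bhlhe41, its relative, was higher in IS than in cauda (2.52 ± 0.41), as was the kinase gene Csnk1e (0.81 ± 0.14). These calls held in all 11 fits with 1 library left out. Nfil3, a repressor of PAR bZIP targets, was lower in IS than in caput/corpus (-1.99 ± 0.43) and cauda (-1.50 ± 0.39), but kept these calls in 4 and 6 of 11 such fits. It lost the first without IS 1, 3 or 4, caput/corpus 2 or 3, or cauda 3 or 4, and the second without IS 1, 3 or 4 or cauda 2 or 3. In all, 0 of 19 were higher and 2 lower in IS than in caput/corpus, beside 0.794% and 2.98% of all genes. In IS against cauda 2 were higher and 2 lower, beside 7.4% and 9.06% of all genes. Between caput/corpus and cauda edgeR called none and DESeq2 1, and 3 had an unadjusted p under 0.05.

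Most of the other genes known to be induced by glucocorticoids that were called between regions were lower in IS, the reverse of Fkbp5. Of 20 such genes 18 were tested, and 1 was higher and 7 were lower in IS than in cauda, with a median log2 fold change of -0.59 beside 0.047 over all genes. Of all genes, 7.4% were called higher and 9.06% lower in that comparison. Anxa1, which encodes the anti-inflammatory protein annexin A1, had 37.2, 60.1, 23.3 and 27.1 RPKM in IS 1 to 4, against 151, 196, 102 and 98.3 RPKM in cauda 1 to 4 (log2 -1.91 ± 0.19, adjusted p = 0.000199, edgeR). Dusp1, a phosphatase of MAP kinases, was lower in IS (log2 -1.34 ± 0.17), as were Ddit4, for an inhibitor of mTORC1 (-1.64 ± 0.30), and Nfkbia, for the NF-kB inhibitor (-1.09 ± 0.24). These 4 calls held in all 11 fits with 1 library left out.

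The other calls of that list were fragile. Zfp36 (-0.70 ± 0.19), Bcl6 (-0.89 ± 0.25) and the scavenger receptor gene Cd163 (-1.37 ± 0.35) were lower in IS than in cauda, and Errfi1 (0.46 ± 0.13) was higher. Cd163 lost its call without IS 1, 3 or 4 or cauda 2, 3 or 4. Zfp36 lost it without IS 1, 3 or 4, caput/corpus 3, or cauda 2 or 3, Bcl6 without IS 1, 2 or 3, caput/corpus 2, or cauda 2 or 4, and Errfi1 without IS 1, 2 or 3, caput/corpus 1 or 3, or cauda 2 or 4. The list gave 4 calls without IS 1 or IS 3 and 5 without cauda 2 or cauda 4. It gave 4 calls, all lower in IS, in Maj4 alone, 2 with no term for title series, and none by edgeR in Maj3 alone or with the count files as filed. Over all genes those settings called 1144, 1481, 30 and 4 in that order, where the main fit called 2488.

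Between IS and caput/corpus, 0 of the 18 were higher and 4 lower in IS, with a median of -0.77 beside 0.019 over all genes. Of all genes, 0.794% were called higher and 2.98% lower in that comparison. Dusp1 (-1.33 ± 0.18) and Anxa1 (-1.28 ± 0.21) held in all 11 fits with 1 library left out. Ddit4 (-1.58 ± 0.32) and Zfp36 (-0.88 ± 0.21) did not: the list gave 2 calls without IS 1, 3 or 4 or caput/corpus 2 or 3, and 7 without cauda 1. With no term for title series, in Maj3 alone or as filed, edgeR called none. Over all genes those settings called 233, 0 and 0 in that order, so in the last 2 no list could have a call. The fit without cauda 1 called 1353 of all genes, where the main fit called 571. Between caput/corpus and cauda edgeR called none of the 18 and DESeq2 3, and 4 had an unadjusted p under 0.05.

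**Figure D4:**
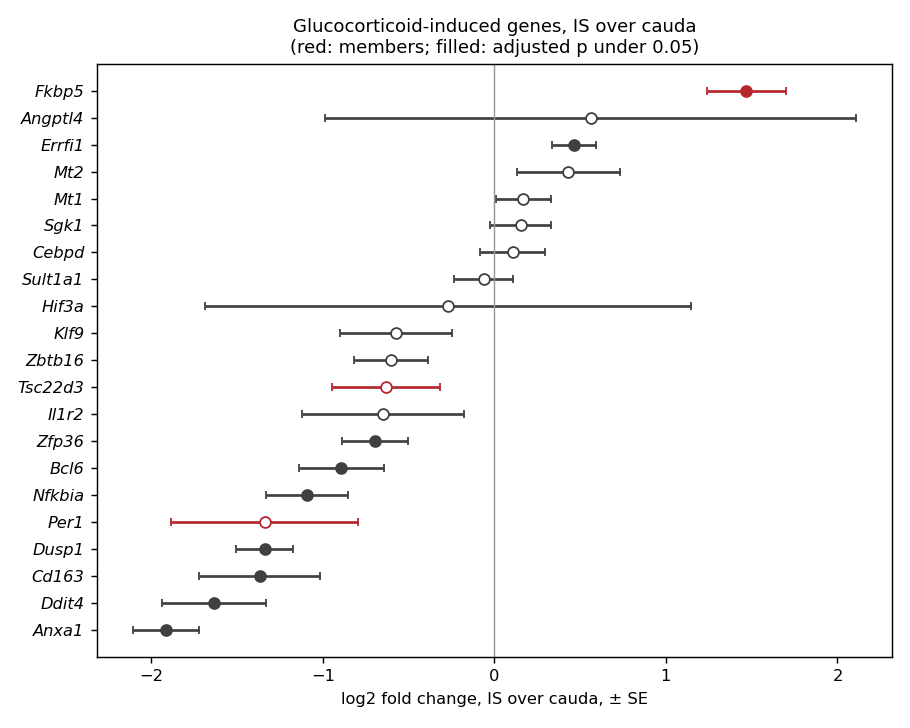
Log2 fold changes of IS over cauda ± SE for 18 glucocorticoid-induced genes (grey) and for Fkbp5, Tsc22d3 and Per1 (red), with filled points for an adjusted p under 0.05. Fkbp5 is at the top, at 1.47, and Anxa1 at the bottom, at -1.91, with 7 of the 18 called lower and 1 called higher in IS.

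Dusp1, Zfp36 and Nfkbia are also known as genes that cell handling and stress induce. Of 18 immediate early genes, 0 were higher and 15 lower in IS than in caput/corpus, beside 0.794% and 2.98% of all genes. In IS against cauda 0 were higher and 16 lower, beside 7.4% and 9.06% of all genes. The median log2 fold changes of the list were -1.12 and -1.29. The count against caput/corpus was 9 without IS 1 or IS 3, 7 without caput/corpus 2 and 8 without caput/corpus 3. Over all genes those fits called 280, 244, 234 and 269 in that order, where the main fit called 571. Their summed RPKM was 2591 to 5206 in IS, 6009 to 8223 in caput/corpus and 3942 to 10106 in cauda. Fosb (-2.48 ± 0.31) and Klf2 (-1.43 ± 0.13) were among those lower in IS than in cauda. The part of these genes' difference in that of the glucocorticoid list was not tested.

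Of 13 chaperones of the receptor complex, 1 was higher and 4 were lower in IS than in cauda (median -0.19), beside 7.4% and 9.06% of all genes. In IS against caput/corpus 0 were higher and 3 lower (median -0.14), beside 0.794% and 2.98% of all genes. Dnajb1, for an HSP40 co-chaperone of HSP70, had 40.8, 52.0, 24.9 and 19.4 RPKM in IS 1 to 4, 120, 109 and 110 RPKM in caput/corpus 1 to 3 and 113, 91.0, 97.5 and 41.0 RPKM in cauda 1 to 4. It was lower in IS than in caput/corpus (-1.93 ± 0.29, adjusted p = 0.00661, edgeR) and in cauda (-1.38 ± 0.27, adjusted p = 0.00606), in all 11 fits with 1 library left out.

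Hsp90aa1, the inducible HSP90, was lower in IS than in cauda (log2 -1.25 ± 0.30), a call lost without IS 1, 3 or 4. Ppp5c, a phosphatase of the complex, was higher (0.62 ± 0.15), a call lost without IS 1, IS 3 or cauda 2. Hsp90ab1 (-0.41 ± 0.12) and Hspa4 (-0.38 ± 0.12) were also lower in IS. Hsp90ab1 lost that call without IS 1, 3 or 4, caput/corpus 3, or cauda 2 or 3, and Hspa4 kept it only in the fits without caput/corpus 3 or cauda 1. The list gave 1 call in that comparison without IS 1 or IS 3, 2 without IS 4 or cauda 2, and 3 without cauda 3. Against caput/corpus, Hsp90aa1 (-1.64 ± 0.33) and Hsp90ab1 (-0.55 ± 0.13) were lower in IS, and the list gave 1 call without IS 1, 3 or 4 or caput/corpus 2 or 3. With 1 library left out, calls over all genes came to 1641 to 3124 in IS against cauda and 234 to 1353 in IS against caput/corpus. Fkbp4, whose protein takes the place of FKBP5 in the complex when hormone binds, was at 19.4 to 39.7 RPKM in IS, 17.5 to 32.5 in caput/corpus and 18.6 to 31.3 in cauda, and was not called between regions.

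Among 12 receptor coregulators, Nrip1, a corepressor of steroid receptors, was the 1 gene called between regions. It had 12.5, 8.72, 19.8 and 19.5 RPKM in IS 1 to 4, 6.65, 7.53 and 9.11 RPKM in caput/corpus 1 to 3, and 7.33, 5.25, 9.01 and 7.56 RPKM in cauda 1 to 4. It was higher in IS than in cauda by 1.00 ± 0.18 (adjusted p = 0.00358, edgeR) in all 11 fits with 1 library left out, and than in caput/corpus by 1.00 ± 0.19 (adjusted p = 0.0189), a call lost without IS 1, 3 or 4 or caput/corpus 2 or 3. By title series, 8 of the 12 coregulators were higher and 0 lower in Maj4 than in Maj3, beside 10.6% and 9.73% of all genes. Without cauda 1 they were 9 and 0, in the fit that called 30.4% of all genes.

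Of 15 steroid-metabolising enzymes, 10 were tested. Across regions edgeR called 1, between IS and cauda, where DESeq2 called 4 and 6 had an unadjusted p under 0.05. Srd5a2, which makes dihydrotestosterone, had 1.50, 15.3, 1.78 and 3.40 RPKM in IS 1 to 4 and 2.11, 3.06 and 6.44 RPKM in caput/corpus 1 to 3. Of the cauda libraries, only cauda 3 had reads, 4 in number (0.272 RPKM). The IS over cauda log2 fold change was 6.61 ± 1.56 (adjusted p = 0.0169, edgeR). Srd5a2 overlapped between IS and caput/corpus, and that comparison was not called. The summed epithelial markers were also lowest in cauda, but they stepped down from IS to caput/corpus as well. Of these markers, Gpx5 was at 267 to 692 RPKM in IS, 85.5 to 196 in caput/corpus and 0.210 to 0.616 in cauda. The part of the epithelial markers was not tested. Hsd11b1, which regenerates active glucocorticoid inside cells, had 0.485 to 5.68 RPKM in IS, 4.14 to 4.79 in caput/corpus and 0.186 to 3.09 in cauda, and was not called by edgeR. Of the 10 enzymes, 4 had an unadjusted p under 0.05 between IS and caput/corpus and 2 between caput/corpus and cauda, where edgeR called none and DESeq2 3 and 2. Over all genes, DESeq2 called 1268 for IS over caput/corpus, 3595 for IS over cauda and 632 for caput/corpus over cauda. The main edgeR fit called 571, 2488 and 93 in that order. The fit without cauda 1 called 3 of the 10 enzymes for IS over caput/corpus, where its calls over all genes rose to 1353. For IS over cauda that fit also called 3 enzymes, and 3124 of all genes.

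The markers of other cells are given in full for reading beside these results. Of all genes tested, 0.794% were called higher and 2.98% lower in IS than in caput/corpus. These shares were 7.4% and 9.06% in IS against cauda, and 0.582% and 0.0331% in caput/corpus against cauda. Of the 16 epithelial markers, 7 were higher and 1 (Lcn5) lower in IS than in caput/corpus, 12 higher and 0 lower in IS than in cauda, and 8 higher and 0 lower in caput/corpus than in cauda, with Rnase10, Cst11 and Cst8 among those higher in IS in both. In cauda 1, 8 of the 16 were at 0. Of the 8 mast cell markers, 7 were lower in IS than in caput/corpus and 8 lower than in cauda, led in level by Tpsb2. Between caput/corpus and cauda neither edgeR nor DESeq2 called any, and 1 had an unadjusted p under 0.05. Of 14 stromal and endothelial markers 1 was higher and 1 lower in IS than in cauda, with Dcn the most abundant, at 2.61 to 107 RPKM in IS, 10.9 to 84.5 in caput/corpus and 2.73 to 19.9 in cauda. Of 8 lymphocyte markers tested 2 were higher in IS than in cauda, with Nkg7 the most abundant, at 5.02 to 19.8 RPKM in IS, 13.3 to 36.4 in caput/corpus and 0 to 14.5 in cauda. Of the 10 markers of the sorted lineage, 2 were higher in IS than in caput/corpus, and 6 higher and 1 lower in IS than in cauda, Cx3cr1 among those higher in both. The lineage count against caput/corpus was 0 without IS 1, 3 or 4 or caput/corpus 2 or 3 and 1 without IS 2, caput/corpus 1 or cauda 2 or 4. The lymphocyte count was 0 without IS 2, IS 4 or cauda 4 and 1 without IS 1 or 3, caput/corpus 1 or 3, or cauda 3. The stromal count was 1 without IS 1, 2 or 3, any caput/corpus library, or cauda 2 or 3. With 1 library left out, calls over all genes came to 234 to 1353 in IS against caput/corpus and 1641 to 3124 in IS against cauda.

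The genes whose levels were most like those of each member were sought by Pearson's r of log2(RPKM + 1) over the 11 libraries, among 7499 genes with a mean of at least 5 RPKM. The points share their libraries, regions and title series, and no test was made. For Fkbp5 they were Arrb2 (r = 0.926), Sepn1 (0.924) and Efcab4a (0.918). For Per1 they were Trim25 (0.970), Slc25a28 (0.941) and Dennd5a (0.936). For Nr3c1 they were Srrm1 (0.958), Eif3a (0.936) and Arhgap5 (0.930), and for Nr3c2 Tra2b (0.935), Ugcg (0.920) and Wdr44 (0.894). For Esr1 they were 2310022A10Rik (0.968), Glt25d1 (0.952) and Glyr1 (0.927). Tsc22d3 had the weakest likeness, to Ap1ar (0.849), Hist4h4 (0.822) and 2610039C10Rik (0.819).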

How the data were processed

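RNA sequencing of 11 libraries of sorted CX3CR1+ cells was used. Per the labels, a PicoRNA kit, the SMARTER v4 library kit and a HiSeq2500 were used. The submitters' processing notes name STAR, HTSeq, edgeR and build mm9, with no versions. The deposited count files hold whole read counts per gene, not stranded according to their names. The deposited table holds RPKM, normalized by the authors, with the gene length they used in bases.

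Each RPKM value times gene length was a whole multiple of 1 read in 100% of values (tolerance 0.001), so the whole reads behind each named column were recovered and tested. In 8 libraries they equal the count file of that sample. The count file of IS 2 equals no column, that of caput/corpus 1 equals the column of IS 2, that of cauda 1 equals the column of caput/corpus 1, and the column of cauda 1 equals no file. Library totals are those reads.

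The test was edgeR 4.0.16 quasi-likelihood (R 4.3.3) with TMM, filterByExpr by region and title series as covariate, in 1 fit of 15116 genes, checked on simulated data. Genes were called at a Benjamini-Hochberg adjusted p under 0.05, and log2 fold changes are ± SE. Nothing says that libraries came from separate animals, so p-values measure the spread between these libraries. Alternatives were DESeq2 1.42.0, limma 3.58.1 on log2(RPKM + 1) or + 0.1, other scaling, filter and design choices, and leaving out each library. The test between title series, and list counts under the alternatives, were added after seeing the data.

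The 7 genes and 12 lists (161 genes, 160 found, 3 of them by Ensembl identifier) were chosen with earlier results of these data known. All 7 members are named. From each list, up to 4 called genes a comparison, smallest p first, are named, with the most abundant marker of each other cell type. Fkbp4, Hsd11b1, list genes called beyond those 4 and the genes named between title series were chosen after their values were seen. Promoters are from RefSeq on GRCm38.p6, a build other than that of the files, and positions on mm9 were not used here. The correlations of libraries with the same number did not decide whether those libraries were paired, and the numbers were not used for pairing.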

Additional observations from a re-analysis of the deposited data

Results flagged for a closer look

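The count file of IS 2 equals no column of the expression table, and it was used in no comparison other than the one with the count files as filed. Its members had signal above the worth of 3 reads. From its own total of 30383072 reads it held 2.15 RPKM of Fkbp5, 58.3 of Tsc22d3, 13.1 of Per1, 18.0 of Nr3c1, 0.260 of Nr3c2 and 0.728 of Esr1, and no read of Pgr. The column named IS 2 held 9.38 RPKM of Fkbp5 and 1.54 of Per1. Within IS and cauda no library of a member gene lay far enough from the others to pass Dixon's 95% limit for 4 libraries, in 12 groups tested, and the highest ratio was 0.760, for Esr1 in cauda. Caput/corpus, with 3 libraries, was not tested in this way. There Per1 had 2.20, 10.8 and 10.6 RPKM, with caput/corpus 1 apart from the others.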

How the results depend on the processing

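The IS over cauda call of Fkbp5 kept its direction in all 24 alternatives and its call in 22. It was lost in Maj3 alone (1.72) and with the count files as filed (0.96), and no member was called under either. Members called in IS over cauda were 2 under DESeq2 (with Per1), where 1 member (Fkbp5) was called in IS over caput/corpus. Counts of genes called, for IS over caput/corpus, IS over cauda and caput/corpus over cauda, were 571, 2488 and 93. They were 1268, 3595 and 632 under DESeq2, 0, 30 and 5 in Maj3 alone, 457, 1144 and 28 in Maj4 alone, 233, 1481 and 83 with no title series, and 914, 1965 and 8 with only the 2 regions compared. With the 8 libraries of matching sources they were 954, 2409 and 52, with limma on log2(RPKM + 1) 934, 3068 and 143, with a pseudocount of 0.1 807, 3008 and 188, and with no filter 566, 2260 and 184. The files as filed gave 0, 4 and 0 by edgeR, with 1166, 3098 and 992 at an unadjusted p under 0.05, and Maj3 alone 404 at that p in the first. Leaving out each library in turn gave 234 to 1353, 1641 to 3124 and 29 to 205. The cause of these moves was not tested.

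The replicate numbers were not used for pairing. Same-number pairs correlated at -0.24 to 0.28, 2 of 10 above 0.1, and 9 of 11 libraries correlated best with their own number. These are deviations from means of few libraries, so they do not decide whether the libraries were paired. With the replicate block the counts were 398, 2362 and 41 genes, and 2 members were called in IS over cauda, Tsc22d3 (-0.64, adjusted p = 0.00542, edgeR) being the second. Esr1 turned to 0.36 for IS over caput/corpus and 0.54 for IS over cauda, and Nr3c1 to 0.0014 for caput/corpus over cauda under that block.

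All other reversals were of differences that had not passed the test. Nr3c1 for caput/corpus over cauda was 0.046 with no title series, 0.11 in Maj4 alone, 0.077 as filed and 0.093 with 8 libraries, and -0.12 to 0.064 over the fits with 1 library left out. Esr1 was 0.033 for IS over cauda in Maj4 alone and 0.27 with a pseudocount of 0.1, -0.53 to 0.97 with 1 library left out, 0.22 for IS over caput/corpus as filed, and for caput/corpus over cauda -0.24 as filed, -0.10 with 8 libraries and -0.26 to 1.11 with 1 left out. As filed, IS over caput/corpus was -0.060 for Nr3c2, -0.15 for Fkbp5 and 1.01 for Per1, and IS over cauda was 0.88 for Per1. Tsc22d3 spanned -0.58 to 0.031 for IS over caput/corpus and -0.65 to 0.014 for caput/corpus over cauda with 1 library left out. Reads a library were 0 to 384 for Esr1, 15 to 221 for Nr3c2 and 0 for Pgr, and the SE of Esr1 for IS over cauda was 0.98 with all libraries and 0.28 without cauda 1.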
